A study of Taeniopygia guttata with 46 samples.

Results

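The widest thermal contrast in the zebra finch forebrain compares birds kept at 43 °C with birds kept at 27 °C. The zebra finch (Taeniopygia guttata) is a small songbird of arid habitats. Samples were taken by their labels alone: the posterior telencephalon of 8 adult males held for 5 h at 43 °C and of 8 other adult males held for 5 h at 27 °C, 16 of the 46 samples of the series. The labels place 43 °C above and 27 °C below the thermoneutral zone, the range of air temperature in which a resting bird spends no extra energy on holding its body temperature. A further 8 males at 35 °C, inside that zone, were used to place genes as 27-like, intermediate or 43-like. They also shared the estimate of spread between birds. No genotype, drug or surgery is named for any group, and each library came from 1 bird.

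In songbirds the posterior part of the telencephalon holds auditory areas that process song. At high air temperature birds lose heat by panting, and in the cold they produce heat by shivering. Heat in cells is known for inducing the heat shock proteins, chaperones that refold damaged proteins. Mild cooling in mammals induces RNA-binding proteins such as CIRBP and RBM3. The files list genes by Ensembl identifier without symbols, and 0 of the 18618 identifiers matched the gene table used here. The levels of these families, of cell type markers and of genes that define the telencephalon could therefore not be read out. Genes are given by identifier, and nothing is said of what they encode. Fewer cells of a type and less RNA per cell cannot be told apart in such bulk samples.

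The libraries were alike in depth. Total counts ran from 10450760 to 16862943 at 27 °C, from 10202361 to 14096858 at 35 °C and from 10201598 to 15820118 at 43 °C. The number of genes with at least 1 count was 15092 to 15500 at 27 °C and 15097 to 15414 at 43 °C. The biological coefficient of variation between birds of a group was 16.4%, a single value fitted over all genes in common. The library of bird T153 at 43 °C stood further from its group than the other 7 did, and some values without it are given below.

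At 43 against 27 °C, 3 of 13254 genes passed an edgeR adjusted p of 0.05, which is 0.0226% of those tested. Of these, 2 rose (0.0151%) and 1 fell (0.00754%). Every change was small, between a 15.4% fall and a 41.4% rise. The 3 genes also passed when temperature was fitted as a straight line over the 24 birds, and they were the 3 genes called there (0.0226%). With 8 birds at each of 3 evenly spaced temperatures, the slope rests almost wholly on the difference between 43 and 27 °C. The line is therefore nearly the same test and not further support. The line called 0 genes in 8 of 24 fits that each left out 1 bird, T153 among them.

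ENSTGUG00000009960 had the smallest p of all genes. Levels are in CPM, each gene's counts relative to the library total and scaled by the TMM method. At 27 °C its level was 77.8, 75.6, 75.2, 72.0, 72.1, 71.8, 62.0 and 73.8 CPM in birds T142, T143, T145, T148, T149, T151, T155 and T159. At 43 °C it was 88.9, 87.1, 83.5, 86.4, 86.9, 90.9, 93.1 and 89.2 CPM in birds T135, T136, T138, T141, T144, T152, T153 and T156. All 8 warm birds lay above all 8 cool birds, and T155 was the one low value. At 35 °C the level was 69.7 to 89.2 CPM with a median of 78.3, and 5 of 8 birds lay above every bird at 27 °C. The group means were 72.5 ± 4.75 CPM at 27 °C, 78.8 ± 5.84 at 35 °C and 88.2 ± 2.95 at 43 °C (SD, n = 8 each). The difference between 43 and 27 °C was 0.28 ± 0.05 on the log2 scale (SE; 95% interval 0.18 to 0.38), a 1.22-fold rise with an edgeR adjusted p of 0.0418. Per 8 °C the fitted line rose by 0.14 ± 0.02 log2 units (SE; edgeR adjusted p = 0.0305).

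ENSTGUG00000010444 showed the larger rise of the called pair. In the same order of birds its level was 21.4, 22.8, 21.0, 22.8, 20.4, 20.8, 21.9 and 20.9 CPM at 27 °C. At 43 °C it was 25.6, 36.8, 28.3, 28.9, 29.1, 28.0, 37.4 and 29.1 CPM, again with no overlap between the groups. Birds T136 and T153 were the highest, and the other 6 warm birds stayed within 25.6 to 29.1 CPM. The spread was small at 27 °C and wider at the other temperatures, with means of 21.5 ± 0.894 CPM at 27 °C, 24.2 ± 4.08 at 35 °C and 30.4 ± 4.30 at 43 °C (SD, n = 8 each). At 35 °C the birds ran from 18.5 to 30.6 CPM, from below the coolest group to inside the warmest. The log2 difference between 43 and 27 °C was 0.50 ± 0.09 (SE; 95% interval 0.31 to 0.69), a 1.41-fold rise with an edgeR adjusted p of 0.0418.

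ENSTGUG00000005750 was the only called gene that fell, and the most abundant of the 3. At 27 °C its level was 609, 520, 553, 581, 527, 467, 522 and 553 CPM in the birds in the order above. At 43 °C it was 476, 478, 432, 451, 465, 466, 438 and 458 CPM. The groups overlapped through a single cool bird, T151 at 467 CPM, and 6 of the 8 warm birds lay below all cool birds. At 35 °C all 8 birds lay between 478 and 540 CPM, with a mean of 504 ± 22.2 (SD, n = 8) against 541 ± 43.2 at 27 °C and 458 ± 16.8 at 43 °C. The gene fell by 0.24 ± 0.04 on the log2 scale (SE; 95% interval -0.33 to -0.15; edgeR adjusted p = 0.0418).

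ENSTGUG00000002746 had the second smallest p among the genes with lower values at 43 °C, and did not pass the adjusted threshold (edgeR adjusted p = 0.0545). It is a low-abundance transcript. Its level was 2.76 to 6.45 CPM at 27 °C with a median of 4.07, up to 4.76 CPM at 35 °C with a median of 3.08, and 0.596 to 3.21 CPM at 43 °C with a median of 1.65. At 43 °C 7 of 8 birds lay below every bird at 27 °C, the exception being T156 at 3.21 CPM. The log2 difference was -1.35 ± 0.26 (SE; 95% interval -1.89 to -0.81), far larger than that of any called gene and measured with a far larger error.

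**Figure D1:**
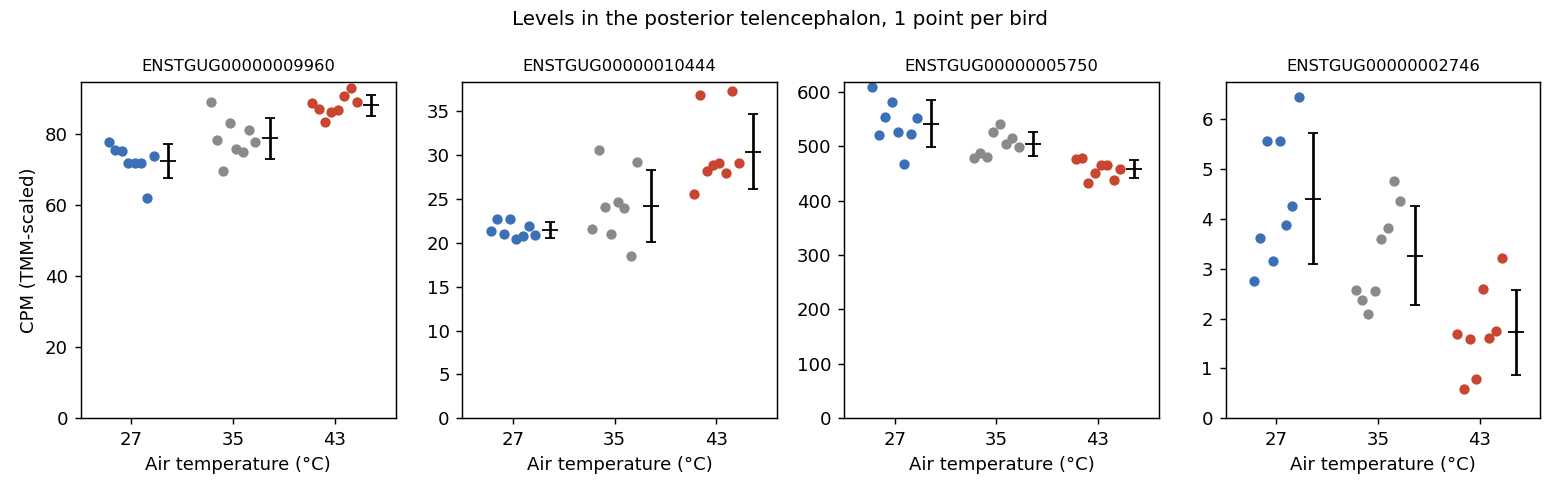
CPM of the 2 genes with higher and the 2 genes with lower values at 43 °C that had the smallest p, in each bird (points) by air temperature in °C, with mean ± SD (black, n = 8). The 8 birds at 43 °C lie above the 8 at 27 °C for ENSTGUG00000009960 and ENSTGUG00000010444, and the groups overlap for the other two.

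These calls were near the threshold, and single birds decided them. Without T144 at 43 °C, 10 genes were called (7 rose, 3 fell), including the 3 above and ENSTGUG00000002746 (edgeR adjusted p = 0.0323 for each of the 4). No gene was called without T143, T145, T148, T149, T155 or T159 at 27 °C, T147 at 35 °C, or T135, T136, T141, T152 or T153 at 43 °C. Exactly 1 gene was called without T142, T151, T140, T146 or T138. Exactly 2 were called without T139, T157 or T158, 3 without T137 or T156, and 4 without T154. The directions of the 4 genes were the same in all 24 of these fits. Genes picked for the smallest p could hardly change direction without 1 bird, so this is a description only. The log2 difference of ENSTGUG00000009960 ran from 0.25 to 0.30 in them, that of ENSTGUG00000010444 from 0.45 to 0.53, that of ENSTGUG00000005750 from -0.26 to -0.21 and that of ENSTGUG00000002746 from -1.55 to -1.23.

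**Figure D2:**
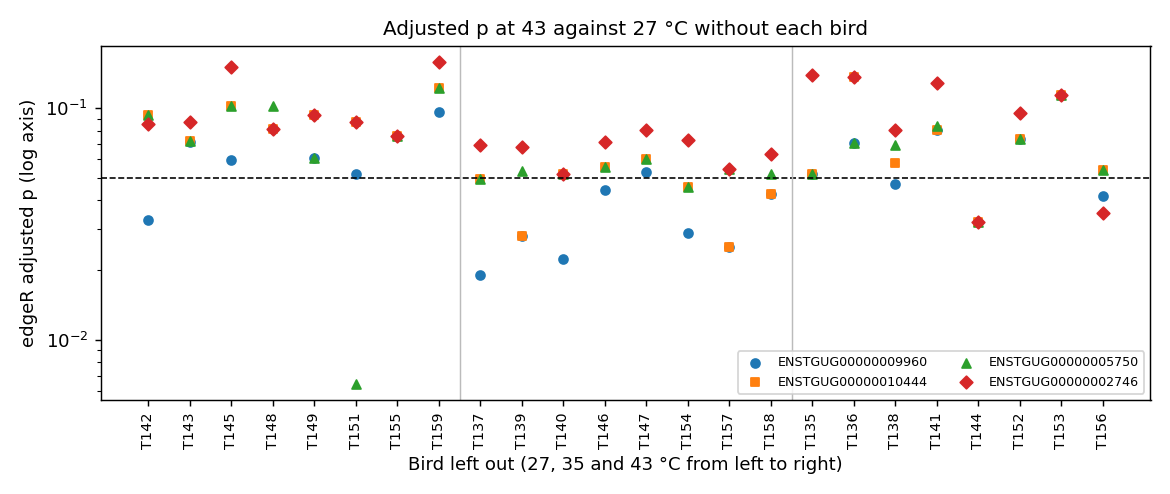
The edgeR adjusted p (log axis) of the 4 genes at 43 against 27 °C when each of the 24 birds is left out, with the threshold of 0.05 dashed and vertical lines between the birds of 27, 35 and 43 °C. Without T144 all 4 genes lie at 0.0323, and without T153 all 4 lie at 0.113.

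Over all genes tested, differences at a looser threshold were many and small. An unadjusted p under 0.05 was reached by 1446 genes, 10.9% of those tested, where a test with no effect gives 5% on average. Genes measured in the same birds are not independent, so the share can lie away from 5% with no effect, and the excess was not tested. Of these, 746 were higher at 43 °C (5.63%) and 700 lower (5.28%). Their median difference was 0.23 log2 units in size, or 1.17-fold, against 0.09 (1.06-fold) over all genes tested. Picking genes by p favours larger differences, so nothing is read from this gap. Under 0.01 lay 431 genes (3.25%), and under 0.001 lay 69 (0.521%), of which 37 were higher and 32 lower. The straight line over the 24 birds, which rests on nearly the same difference, gave 1457 genes under 0.05 (11%). Without T153, 1198 genes (9.01%) lay under 0.05. The 1446 genes include the 3 called by edgeR.

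DESeq2, a second count model, called 64 genes, or 0.633% of the 10110 it tested after its own filter. It called 41 as higher (0.406%) and 23 as lower (0.227%). All 3 genes called by edgeR were among them, and 58 of the 64 had an edgeR unadjusted p under 0.001. Their differences, as estimated by edgeR, ran from 0.14 to 0.83 log2 units in size, and none reached 2-fold. DESeq2's filter left some scarce genes with larger differences without an adjusted p, among them ENSTGUG00000002746 (edgeR log2 difference -1.35). The mean levels of the 64 called genes ran from 6.99 to 1175 CPM.

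Complete separation of the groups was rare. The number of genes that chance alone would separate was not computed, so nothing is read from the direction. All 8 birds at 43 °C lay above all 8 at 27 °C for 5 genes (0.0377% of those tested), and for 0 genes did all lie below. The 5 separated genes had mean levels of 20.4 to 80.3 CPM and differences of 0.26 to 0.50 log2 units. Among them were the 2 called risers. With counts scaled by the RLE method of edgeR in place of TMM, 7 genes were separated, all higher at 43 °C.

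**Figure D3:**
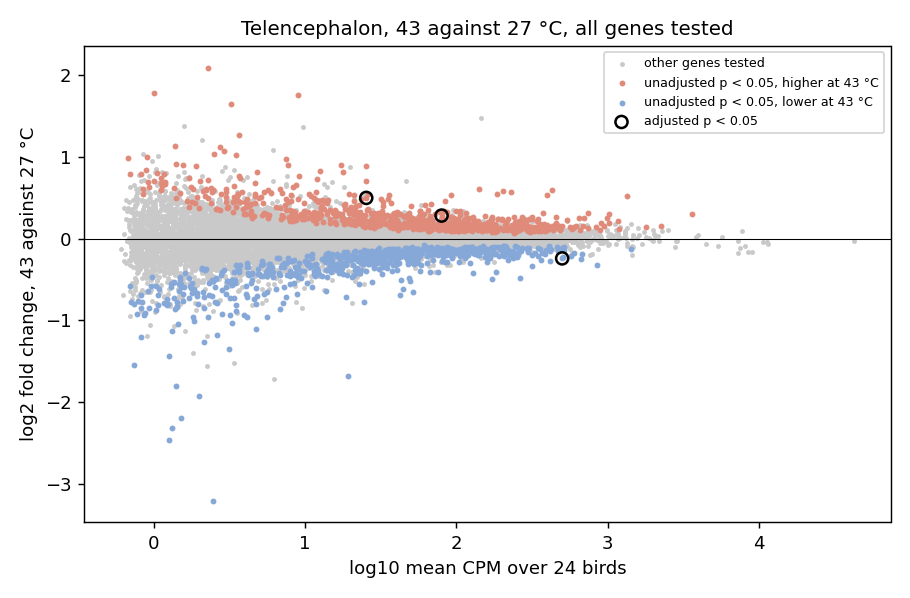
Log2 fold change at 43 against 27 °C against log10 mean CPM for the 13254 genes tested, with genes at an unadjusted p under 0.05 in colour and the 3 called genes ringed. Most coloured genes of high abundance lie within 0.5 log2 units of 0, and the largest differences are at low abundance.

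The largest differences among the genes at an unadjusted p under 0.05 were those of scarce transcripts. A difference of over 2-fold was found for 28 of the 1446, 10 higher and 18 lower at 43 °C. Their mean levels were 0.740 to 19.2 CPM with a median of 2.20, and 1 of them reached 10 CPM. In 14 of the 28 the group medians also differed by over 2-fold, and in 3 a single bird held over 50% of the higher group's total. The smallest edgeR adjusted p among the 28 was that of ENSTGUG00000002746, 0.0545. No transcript was switched on or off across a group. Of all 18618 genes listed, 312 had counts at 43 °C and none at 27 °C, and 311 the reverse. Such genes had at most 8 and 12 counts in total and were seen in at most 5 of 8 birds.

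The share of genes at an unadjusted p under 0.05 followed abundance. It was 6.54% of 413 genes with a mean under 1 CPM, 7.89% of 3954 genes at 1 to 10 CPM, 10.9% of 6699 genes at 10 to 100 CPM and 17.1% of 2188 genes at 100 CPM or more. The error fell in the same order, with a median half-width of the 95% interval of 0.67, 0.40, 0.18 and 0.12 log2 units. At 10 to 100 CPM the directions were even, with 367 genes higher and 365 lower. At 100 CPM or more 232 of 375 were higher, and higher genes outnumbered lower ones in all 26 refits with another scaling or without 1 bird (178 to 259 higher, 99 to 184 lower). These refits share most birds with the main fit. Fits with surrogate variables, which are estimated hidden factors, were not split by abundance. Over all abundances, 750 of 1462 genes were higher with 1 surrogate variable, 587 of 1207 with 2 and 495 of 1031 with 3. Below 10 CPM lower genes were the more numerous, 176 of 312 at 1 to 10 CPM and 16 of 27 under 1 CPM. The direction split of these bands was not itself tested. It was also not set against the directions of all genes in each band. Whether a whole band leaned the same way was therefore not tested.

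The precision of the contrast bounds what could have been missed. For 79.6% of the genes tested, the 95% interval of the difference was narrower than 1.5-fold on both sides. The share was 94.2% at 10 to 100 CPM and 99.1% at 100 CPM or more. At 100 CPM or more, 80.9% of intervals lay within a 1.2-fold change. Under 1 CPM, 4.12% lay within 1.5-fold and 59.1% within 2-fold, so for most genes there the interval did not exclude a change of 1.5-fold. These intervals cover the spread between birds and are not corrected for the number of genes.

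The genes at an unadjusted p under 0.05 were 27-like at 35 °C about as often as all genes tested. Each gene was placed by where its mean log2 level at 35 °C lay between the mean at 27 °C (0) and that at 43 °C (1). Values under 0.333 were called 27-like, values over 0.667 43-like, and the rest intermediate. Of the 1446 genes at an unadjusted p under 0.05, 745 were 27-like (51.5%), 495 intermediate (34.2%) and 206 43-like (14.2%). Over all genes tested the shares were 50.3% 27-like, 15.1% intermediate and 34.6% 43-like. A gene without effect that is picked for its difference between the outer groups tends to have its middle group between them. Nothing is therefore read from the higher intermediate share, or from the lower 43-like share that goes with it. The same choice of genes acts on the 27-like share. Its nearness to that of all genes tested is a description only.

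Genes higher and genes lower at 43 °C were placed much alike. Among the 746 higher genes 53.6% were 27-like, 33.9% intermediate and 12.5% 43-like. Among the 700 lower genes these were 49.3%, 34.6% and 16.1%. The 35 °C mean lay beyond the 27 °C mean, on the side away from 43 °C, in 253 genes (17.5%), and beyond the 43 °C mean in 35 (2.42%). Over all genes tested these shares were 35.4% and 24.8%. Picking genes by their outer difference acts on these shares too, so nothing is read from them. The median position was 0.306 for the higher and 0.336 for the lower genes, against 0.327 over all genes tested. For the higher genes the median step from 27 to 35 °C was 0.06 log2 units, and that from 35 to 43 °C was 0.15. For the lower genes the steps were -0.08 and -0.16. With no limit on p, they were 0.03 and 0.06 for all genes with higher values at 43 °C. For all genes with lower values they were -0.03 and -0.06. Both steps use the same 35 °C birds.

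The 64 genes called by DESeq2 were picked on the same difference, so their placement is given as a description. Of them, 35 were 27-like (54.7%), 26 intermediate (40.6%) and 3 43-like (4.69%), and 53 of 64 (82.8%) lay nearer to the 27 °C than to the 43 °C mean. Over all genes tested 58.4% did. Of the 3 genes called by edgeR, ENSTGUG00000009960 at 0.420 and ENSTGUG00000005750 at 0.418 were intermediate. ENSTGUG00000010444 at 0.318 was just 27-like, and ENSTGUG00000002746 stood at 0.305. None of the 4 passed the adjusted threshold between 35 and 43 °C (edgeR adjusted p of 0.371 for 3 of them and 0.374 for ENSTGUG00000005750) or between 27 and 35 °C (edgeR adjusted p = 0.9999 for each).

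**Figure D4:**
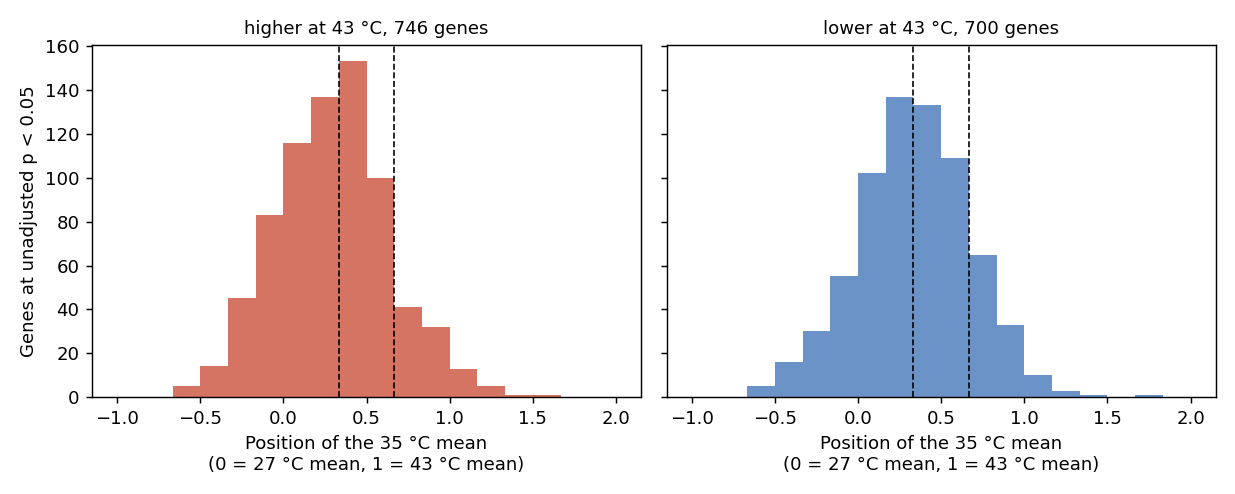
Number of genes at an unadjusted p under 0.05 by the position of their 35 °C mean between the 27 °C mean (0) and the 43 °C mean (1), for 746 genes higher and 700 lower at 43 °C. Dashed lines mark 0.333 and 0.667, and values beyond -1 and 2 are drawn in the outer bars. Both distributions are centred nearer to 0 than to 1.

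A readout outside this contrast, the testis of birds at 35 °C, was used to ask in which tissue the genes at an unadjusted p under 0.05 are expressed. Those higher at 43 °C were more often telencephalon-enriched than those lower, meaning at least 4-fold higher in telencephalon than in testis at 35 °C. This held for 239 of the 746 higher genes (32.0%) and for 107 of the 700 lower genes (15.3%), against 18.5% of all genes tested. With no limit on p, it held for 1416 of 6557 genes with higher values (22%) and 1038 of 6697 with lower values (15%). The share among the lower genes was thus close to that of all genes with lower values. Part of the gap between the directions was present over all genes tested. Testis-enriched genes made up 8.31% of the higher and 14.6% of the lower genes, against 13.4% of all. With no limit on p, they made up 12.4% of all genes with higher values and 14.3% of those with lower values. Among the 41 genes that DESeq2 called as higher, 18 were telencephalon-enriched (43.9%), and among the 23 called as lower, 2 were (8.70%). These differences in share were not tested.

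Abundance moves with this enrichment, so the shares were also taken at like abundance. At 10 to 100 CPM 32.7% of the higher and 15.1% of the lower genes were telencephalon-enriched, against 17.4% of all 6699 genes. At 100 CPM or more the shares were 38.4% and 18.2%, against 31.6% of all 2188. Under 10 CPM they were 20.4% and 13.5%, against 13.6% of all 4367. The shares of all genes in these bands were not split by direction. In all 26 refits with another scaling or without 1 bird, the share was larger among the higher genes (29.5 to 35.3%) than among the lower ones (14.5 to 17.4%). The tissue ratio was the same in each, and the refits share most of their birds, so they are not independent support. Fits with surrogate variables or with depth as a covariate were not included. A difference in the cell types or regions dissected would move such genes too, and its part was not tested.

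Of the genes named above, ENSTGUG00000005750 was strongly telencephalon-enriched, 3.66 log2 units above testis, and ENSTGUG00000009960 stood 1.08 above. ENSTGUG00000010444 and ENSTGUG00000002746 were slightly lower in telencephalon than in testis, by -0.24 and -0.66 log2 units. The testis level of ENSTGUG00000009960 averaged 31.5 ± 5.43 CPM in the 7 birds at 27 °C and 31.9 ± 5.09 in the 7 at 43 °C (SD). That of ENSTGUG00000010444 was 19.8 ± 6.88 and 25.2 ± 7.82 CPM. That of ENSTGUG00000005750 ran from 23.1 to 40.7 CPM at 27 °C and from 26.6 to 58.8 at 43 °C, and that of ENSTGUG00000002746 was 4.94 ± 2.05 and 5.21 ± 1.66 CPM. The 27 and 43 °C groups overlapped in the testis for all 4 genes, and these differences were not tested here.

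**Figure D5:**
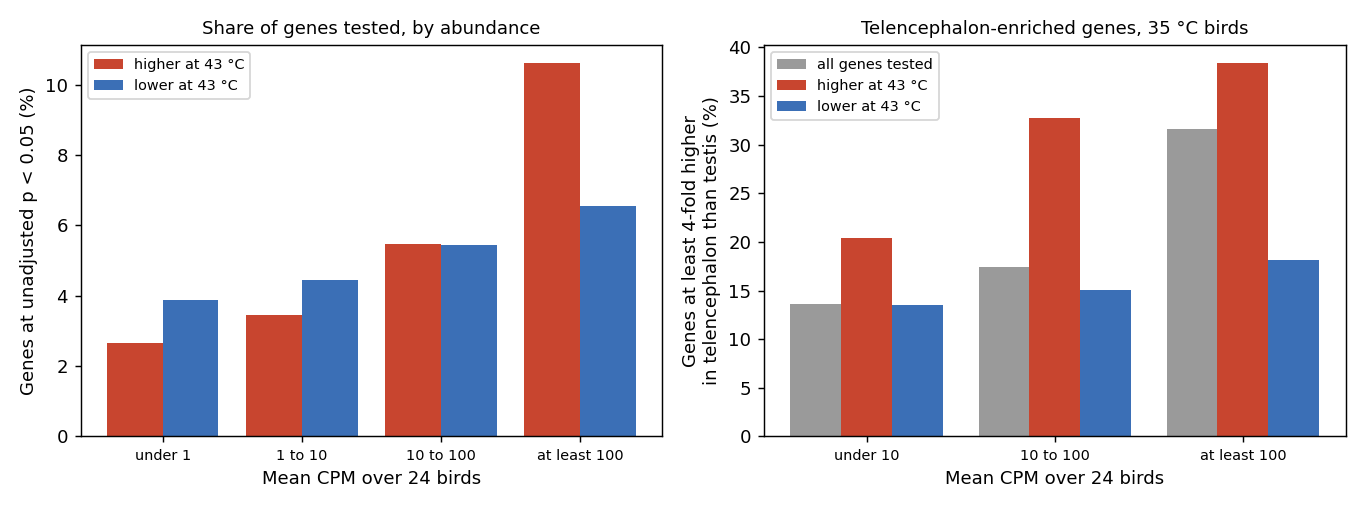
Left, percent of genes tested at an unadjusted p under 0.05 by mean CPM, higher or lower at 43 °C. Right, percent of genes at least 4-fold higher in telencephalon than in testis at 35 °C among all genes tested and among those higher or lower at 43 °C. At 10 to 100 CPM the enriched share was 32.7% among higher and 15.1% among lower genes.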

How the data were processed

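Total RNA of macrodissected posterior telencephalon was made into stranded mRNA libraries, per the labels' protocols. The authors deposited raw counts per gene, and the tools listed in the submitters' processing notes are featureCounts 1.6.4, HISAT2 2.1.0, Trimmomatic 0.36 and CASAVA. Neither genome build nor annotation nor strand setting is given in the sources used here, so reads of overlapping or near-identical genes could have gone to either. All value columns were used, and testis runs were summed per bird. Each testis sample was the sum of a paired-end and a single-end run, while each telencephalon sample had a single column. The part of this difference in the tissue ratios was not tested.

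Genes were kept by filterByExpr (minimum count 10, minimum total 15), then TMM-scaled. The robust quasi-likelihood F test of edgeR 4.0.16 under R 4.3.3 was run over the 24 telencephalon libraries, with Benjamini-Hochberg adjustment over 13254 genes. Standard errors and intervals came from the F statistic. The fit was tested on simulated data. Placement used log2 CPM with a prior count of 2, and tissue ratios a pseudocount of 0.1 CPM. Alternatives used DESeq2 1.42.0, limma 3.58.1 and sva 3.50.0. Libraries of a group differed by more than counting noise in every pair (chi-square per degree of freedom of 7.94 or more).

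The rule named the 2 genes with higher and the 2 with lower values of smallest p, since no table paired identifiers with symbols. The planned gene lists and cell type markers need symbols and were not run. The comparison and its tests were chosen with earlier results of these data known. The labels do not describe batches.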

Additional observations from a re-analysis of the deposited data

Results flagged for a closer look

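In 2 of 24 groups of 8 values examined, 1 bird lay far from the other 7, where chance gives about 1 in 20. ENSTGUG00000009960 was at 62.0 CPM in bird T155 at 27 °C and at 71.8 to 77.8 CPM in the other 7. Without T155 its log2 difference between 43 and 27 °C was 0.25, with an edgeR adjusted p of 0.0754. Bird T153 at 43 °C had a root mean square distance over genes of 0.431 log2 units to its group's other birds, and the other 7 had 0.352 to 0.386. Without T153 no gene was called by edgeR.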

How the results depend on the processing

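The count of 3 genes called became 64 with DESeq2, 6 without the filter on low counts, 5 with limma voom and quality weights, 1 with 1 surrogate variable and 0 with 2 or 3 surrogate variables. It was 2 to 4 under the other 6 alternatives and ran from 0 to 10 when 1 bird was left out, with 0 in 12 of 24 fits. With only the 27 and 43 °C libraries 3 genes were called, all of which rose, and ENSTGUG00000005750 was not among them (edgeR adjusted p = 0.143). The cause of these changes was not tested. The count of 1446 genes at an unadjusted p under 0.05 ran from 1031 (3 surrogate variables) to 1665 (no filter) and from 1198 to 1582 without 1 bird. None of the 4 named genes changed direction in any fit, which was near certain for genes picked by smallest p. Over 24 fits without 1 bird, ENSTGUG00000009960 kept its call in 11, ENSTGUG00000010444 in 6 and ENSTGUG00000005750 in 4, and ENSTGUG00000002746 gained one in 2. Fits without a 35 °C bird leave both compared groups whole. Most of the calls kept by ENSTGUG00000009960 and ENSTGUG00000010444 were in such fits. Of the 12 fits with 0 calls, only that without T147 left out a 35 °C bird, so the counts over 24 fits understate how much the calls depend on the compared birds. DESeq2's filter left ENSTGUG00000002746 without an adjusted p. The trend called 3 genes, or 4 without the filter, and 0 to 5 without 1 bird. With limits of 1/4 and 3/4, 42.5% of genes were 27-like, and without 1 bird 45.3 to 59.3%. The interval lay within 2-fold for 94.3% and within 1.2-fold for 39.6% of genes. With a 2-fold limit, 46.5% of the higher genes were telencephalon-enriched, and without 1 bird 29.5 to 35.3% at 4-fold. The tissue and abundance refits and the checks of differences over 2-fold were chosen after seeing the data. No paired analysis was possible because each bird gave 1 telencephalon library at 1 temperature, so the compared groups share no bird. Intervals were widest for genes under 10 CPM; the parts of depth and of variation between birds were not separated.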
